A study of Homo sapiens with 12 samples.

Results

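Homologous recombination and the Fanconi anemia pathway are described here through 37 named genes in MDA-MB-231 cells, a human triple-negative breast cancer line, after knockdown of YAP and TAZ. The genes were listed by name, as subunits and partners of the 2 pathways with some checkpoint and mismatch repair genes. Earlier results of these data were known when the list was drawn up. A gene was matched through the gene symbol of the array annotation, and the probe set with the highest mean over the 12 arrays stood for it. Of the 37 genes, 34 had a probe set and all 34 passed the filter on low values, out of 13225 genes tested in the whole experiment. BRCA2, FANCA and FANCD2 were not analysed here. In all, 75 probe sets carried the name of exactly 1 member.

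The 3 groups were cells given a control siRNA, cells given YAP/TAZ siRNA mix 1 and cells given YAP/TAZ siRNA mix 2, with 4 arrays each, replicates A to D. The siRNAs were transfected at 33 nM on day 2 after plating, the medium was changed on day 3 and RNA was taken on day 4. Each mix aimed at both YAP (gene YAP1) and TAZ (gene WWTR1), related transcriptional coactivators that act largely through TEAD factors. The replicates were labelled as biological replicas of 1 cell line, and the labels do not say whether they were handled in parallel. The main fit leaves the letters out. Its p-values measure the spread between such replicas, with any spread between letters included. The siRNA sequences were not used here, and no group received a mix against a single one of the genes.

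The labels held for the targeted genes: YAP1 was left at 12.4% of control with mix 1 and 11.9% with mix 2, and WWTR1 at 19.8% and 18.3%, from limma's fit. Array medians lay between 5.69 and 5.78 log2. The 3′ minus 5′ readings of ACTB and GAPDH probe sets, a sign of RNA integrity, ranged from 1.36 to 2.24 and from 0.33 to 0.51 log2, and exact two-sided permutation tests between groups gave p of 0.114 or more. These tests do not use the replicate letters. The mix 1 array had the higher ACTB reading and the higher array median in 4 of 4 pairs of the same letter with control (ACTB means 1.92 and 1.7), and the part of this in the results was not tested. Of 5 markers of this mesenchymal-like line, 4 passed the filter, VIM with a control mean of 14.28 log2, and SPARC did not (4.33). Of 4 genes listed as absent or low in this line, CDH1 (3.98), PGR (3.56) and FOXA1 (4.62) were below the filter value. ESR1 of that list passed it, with a control mean of 6.31 log2. Of the epithelial list 4 of 5 markers passed: EPCAM (9.57), KRT8 (10.63), KRT18 (12.88) and KRT5 (6.08), whereas KRT14 (4.04) did not. The leukocyte and endothelial markers PTPRC (4.04) and CDH5 (3.97) were below the filter value. Of the endothelial list 2 of 4 markers passed the filter, of the leukocyte list 2 of 3 and of the fibroblast list 1 of 5. The array means of these last 3 lists were higher with both mixes. For the endothelial list they ran from 5.18 to 5.42 log2 in control, 5.57 to 5.78 with mix 1 and 5.58 to 5.84 with mix 2. The fibroblast list ran from 4.66 to 4.80, 4.95 to 5.10 and 5.37 to 5.4, and the leukocyte list from 5.02 to 5.30, 5.33 to 5.42 and 5.58 to 5.80. Single genes carried much of this: PECAM1 averaged 6.54 in control and 8.62 and 7.88 with the mixes, LUM 3.19, 4.26 and 5.41, and CD14 5.15, 6.26 and 6.39. KDR read 5.30, 4.56 and 5.30 and VWF 5.57, 5.52 and 5.60. The part of these lists in the results was not tested.

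Homologous recombination copies a broken DNA end from an intact sister chromatid. The end is resected by nucleases that start from the MRE11-RAD50-NBN complex, the single strand is led into the intact copy with help from BRCA1, PALB2 and BRCA2, and the joined molecules are separated by BLM and its partners or by nucleases. The Fanconi pathway frees DNA whose strands are crosslinked: a core complex and the conjugating enzyme UBE2T place ubiquitin on FANCD2 and FANCI, USP1 takes it off, and recombination finishes the repair. Many of these genes are transcribed mostly in S and G2 phase.

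With mix 1, 33 of the 34 members were lower than control (97.1%), none was higher, and FANCF did not pass the test. Among all genes tested, 32.3% were lower and 34.8% higher in that comparison (limma, Benjamini-Hochberg adjusted p below 0.05). At least 2-fold lower were 21 members (61.8%), against 8.29% of all genes, and in 33 members the 4 knockdown arrays all lay below the 4 control arrays, against 31.0% of all genes. The median log2 difference of the members was -1.24, where the median of all genes was 0.00, and the members ranged from -3.18 for MND1 to 0.00 for FANCF.

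With mix 2, 30 members were lower (88.2%) and RAD50 was higher, whereas FANCF, FANCL and NBN did not pass. The shares of all genes were 31.9% lower and 36.7% higher. At least 2-fold lower were 20 members (58.8%), against 9.35%, and 29 were lower without overlap of the arrays (85.3%), against 31.0%. The median was -1.28 beside 0.03 for all genes, and the range ran from -4.33 for RAD51AP1 to 0.76 for RAD50. The 30 genes lower with mix 2 were all lower with mix 1 as well, and 17 of them were at least 2-fold lower with both mixes. The mixes were set against the same control arrays, so their values stand side by side and do not replicate each other.

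**Figure D1:**
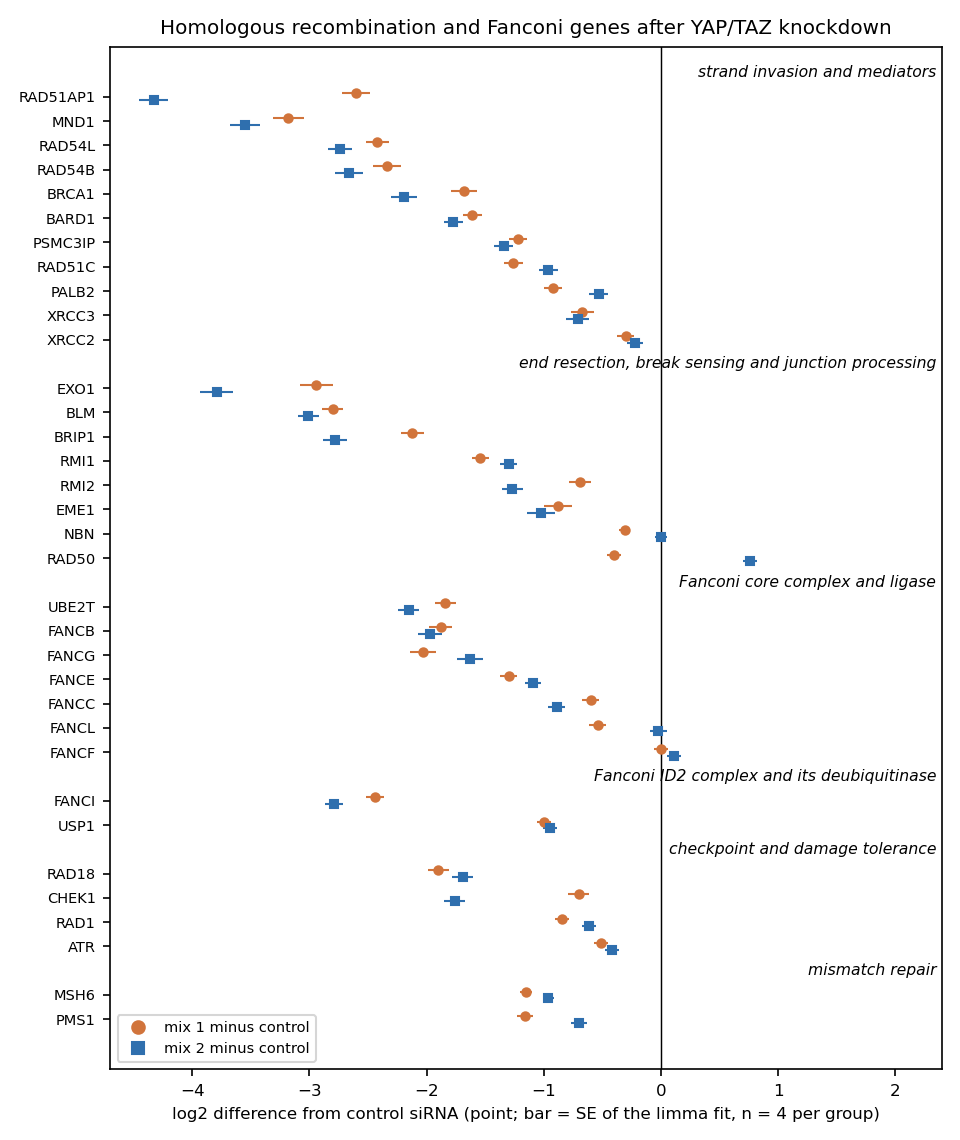
Log2 difference from control siRNA for the 34 members with mix 1 (circles) and mix 2 (squares), grouped by role; points are limma estimates and bars their SE, n = 4 arrays per group. Most points lie left of 0, with RAD51AP1 (-4.33) farthest out under mix 2, MND1 (-3.18) under mix 1, and RAD50 on opposite sides of 0 under the mixes.

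The promoters of members that moved together are shown for what they share in sequence. RefSeq promoter windows (GRCh38.p14) were found for 30 of the 34 measured members, 44 windows in all; FANCI, NBN, RAD54B and RMI2 had none in the table. The last 120 bases before the start site are printed 5′ to 3′ on the gene's own strand, for 4 strongly lowered recombination genes, for FANCC as a Fanconi gene with an E2F-type match 46 bases before the start, and for FANCF and RAD50 as members not lower with both mixes. None of these stretches overlaps an annotated gene. Capitals mark matches to CCAAT (or ATTGG, its other strand) and to the E2F-type sequence TTTNNCGC. The windows are BLM at chr15:90717226-90717345 (plus strand), BRIP1 at chr17:61863529-61863648 (minus), RAD51AP1 at chr12:4538770-4538889 (plus), RAD54L at chr1:46247568-46247687 (plus), FANCC at chr9:95317710-95317829 (minus), FANCF at chr11:22625824-22625943 (minus) and RAD50 at chr5:132556857-132556976 (plus).
BLM: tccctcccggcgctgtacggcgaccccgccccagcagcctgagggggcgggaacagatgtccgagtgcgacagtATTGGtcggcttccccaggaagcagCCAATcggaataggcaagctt
BRIP1: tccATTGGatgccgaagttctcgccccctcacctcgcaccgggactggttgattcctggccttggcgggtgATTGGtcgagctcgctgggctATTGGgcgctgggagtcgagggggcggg
RAD51AP1: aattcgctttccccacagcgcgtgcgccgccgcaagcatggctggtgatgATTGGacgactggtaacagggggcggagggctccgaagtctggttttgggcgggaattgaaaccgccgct
RAD54L: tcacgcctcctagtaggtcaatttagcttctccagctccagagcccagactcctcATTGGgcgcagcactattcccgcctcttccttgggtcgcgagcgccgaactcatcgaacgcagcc
FANCC: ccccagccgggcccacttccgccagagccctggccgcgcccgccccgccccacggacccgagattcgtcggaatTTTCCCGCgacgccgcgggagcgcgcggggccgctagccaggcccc
FANCF: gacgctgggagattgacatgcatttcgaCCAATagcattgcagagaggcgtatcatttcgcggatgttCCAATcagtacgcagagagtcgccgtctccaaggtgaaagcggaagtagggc
RAD50: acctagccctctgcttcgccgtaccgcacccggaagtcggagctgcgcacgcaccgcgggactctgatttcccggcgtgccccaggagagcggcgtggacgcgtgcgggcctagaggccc

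CCAAT boxes, the site of NF-Y, were in 19 of the 44 member windows over the 250 bases before the start (43.2%), against 32.7% of the windows of all genes tested and 32.0% of all windows in the table. The E2F-type sequence TTTNNCGC was in 4 windows (9.09%), against 7.97% and 5.92%, namely those of FANCC, EXO1, MND1 and RMI1. The TTTGAA element known from promoters of late cell-cycle genes was also in 4 (9.09%), against 9.22% and 13.3%, and the E-box CACGTG was in none, against 8.06% and 6.34%. GGAATG, a core that TEAD factors bind, was in 7 windows (15.9%), against 9.91% and 11.9%, but these belong to 3 of the 30 genes (10.0%), against 13.1% of genes tested and 14.3% of all genes in the table. None of the 21 windows of members at least 2-fold lower with both mixes held it. Both strands were searched, each motif was counted on its own even where matches overlapped, and a match is a description of the letters only. FANCF, which passed with neither mix, carries 2 CCAAT boxes in the printed stretch, and BLM, left at 14.3% and 12.4% of control, carries 2 as well. The 4 lowered recombination genes printed all carry a CCAAT box. MND1 and BARD1, also at least 2-fold lower with both mixes, have none in their windows and are not printed. Counted by gene, CCAAT boxes were in 8 of 15 members at least 2-fold lower with both mixes (53.3%). They were in 7 of the 15 other members with windows (46.7%) and in 41.3% of genes tested.

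The genes that drive strand invasion were all lower. All 11 measured members of this group passed as lower with each mix, with median log2 differences of -1.61 for mix 1 and -1.77 for mix 2. BRCA1, the ubiquitin ligase that directs end resection and recruits PALB2, read 9.01, 9.13, 9.06 and 9.03 log2 in control arrays A to D. It read 7.67, 7.41, 7.28 and 7.17 with mix 1 and 6.91, 6.55, 7.02 and 6.97 with mix 2. No array of one group overlapped another group. The means were 9.06 ± 0.05, 7.38 ± 0.22 and 6.86 ± 0.21 (SD, n = 4), which left 31.3% and 21.8% of control (log2 differences -1.68 and -2.19, adjusted p = 4.52e-09 and 1.95e-10). BARD1, the obligate partner of BRCA1 in the ligase, differed by -1.61 and -1.77.

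RAD51AP1, which stimulates joint formation in strand invasion, had the largest fall of all members with mix 2. Its control arrays read 11.32, 11.21, 11.11 and 11.24 log2, and its mix 1 arrays 8.89, 8.71, 8.35 and 8.55. The mix 2 arrays read 7.01, 6.53, 6.96 and 7.05, well below both other groups. The differences were -2.60 ± 0.12 (SE) with mix 1 and -4.33 ± 0.12 with mix 2 (adjusted p = 1.12e-10 and 5.06e-13), which left 16.6% and 4.96% of control. The gene has 1 probe set on the array, so no other probe set bears on this value.

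MND1 and PSMC3IP encode the MND1-HOP2 pair, best known from meiosis, which promotes strand invasion. MND1 had the largest fall of the members with mix 1. It read 10.01, 10.03, 10.03 and 9.95 log2 in control, 7.19, 6.73, 6.66 and 6.73 with mix 1, and 6.60, 6.07, 6.73 and 6.43 with mix 2. Control lay more than 2 log2 units above every knockdown array, while the mixes overlapped each other. The differences were -3.18 ± 0.13 and -3.55 ± 0.13 (SE, adjusted p = 3.08e-11 and 7.95e-12), leaving 11.1% and 8.55%. PSMC3IP differed by -1.22 and -1.34 on its brightest probe set, and its other probe set differed by -1.82 and -2.60.

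The translocases RAD54L and RAD54B, which remodel DNA during strand invasion, were both lower: RAD54L differed by -2.42 and -2.74, RAD54B by -2.34 and -2.66. RAD51C, XRCC2 and XRCC3, subunits of small complexes that assist strand invasion, ranged from -0.22 to -1.26. RAD51C differed by -1.26 and -0.96, XRCC3 by -0.67 and -0.71, and XRCC2 by -0.30 (adjusted p = 0.00178) and -0.22 (adjusted p = 0.0157). The mix 2 arrays of XRCC2 (6.33, 6.4, 6.26 and 6.49) overlapped control (6.70, 6.46, 6.47 and 6.72), and its mix 2 call was lost without control replicate A, control replicate D or mix 2 replicate C (adjusted p = 0.0566, 0.0584 and 0.0546, with a range from 0.00675 to 0.0584 over all alternatives). The mix 2 mean of XRCC3, 5.44 log2, was under the filter value of 5.46, so the size of its fall is uncertain. PALB2, the bridge between BRCA1 and BRCA2, read 8.99, 8.99, 9.03 and 8.98 in control, 8.10, 7.99, 8.17 and 8.05 with mix 1, and 8.64, 8.54, 8.49 and 8.21 with mix 2. The 3 groups did not overlap, and the differences were -0.92 and -0.53 (adjusted p = 9.01e-08 and 3e-05).

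**Figure D2:**
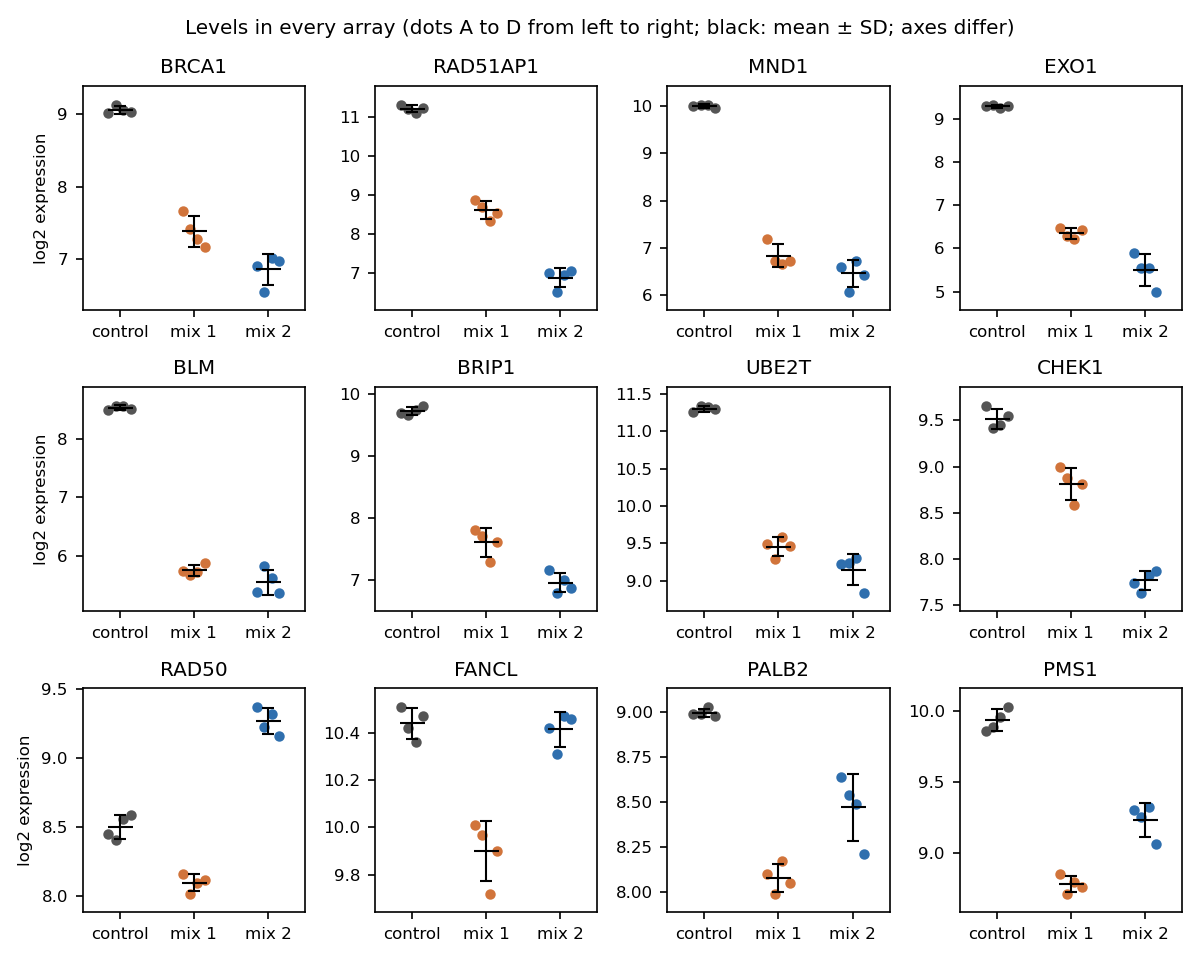
Log2 expression in each of the 12 arrays for 12 members, with dots for replicates A to D from left to right and black bars for the mean ± SD of 4 arrays; the vertical axes differ between panels and do not start at 0. RAD51AP1 steps down from control (11.22) to mix 1 (8.62) to mix 2 (6.89), RAD50 lies below control with mix 1 and above it with mix 2, and FANCL passed against control with mix 1 and not with mix 2.

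Among the genes of end resection, break sensing and junction processing, all 8 were lower with mix 1, and 6 were lower and 1 higher with mix 2 (medians -1.21 and -1.28). EXO1, the exonuclease of long-range resection and of mismatch repair, read 9.28, 9.32, 9.24 and 9.30 log2 in control. With mix 1 it read 6.47, 6.29, 6.21 and 6.42, and with mix 2 5.89, 5.54, 5.55 and 5.0, so that no groups overlapped. The differences were -2.94 ± 0.14 and -3.79 ± 0.14 (SE, adjusted p = 9.16e-11 and 5.07e-12), which left 13.1% and 7.23% of control. The mix 2 mean, 5.50 log2, lay at the filter value of 5.46 with array D below it, so the size of that fall is uncertain. The mix 2 arrays of EXO1 had the largest SD of any member in any group, 0.37, where the median SD of members was 0.06 in control and 0.12 with each mix.

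BLM, the helicase that dissolves double Holliday junctions with TOP3A, RMI1 and RMI2, read 8.50, 8.58, 8.58 and 8.53 log2 in control. It read 5.73, 5.66, 5.72 and 5.87 with mix 1 and 5.37, 5.82, 5.61 and 5.36 with mix 2. Every knockdown array lay far below control, and the mixes overlapped. BLM was left at 14.3% and 12.4% (-2.80 and -3.01, SE 0.09, adjusted p = 2.95e-12 and 9.88e-13). Its mix 2 mean of 5.54 also lay near the filter value, with arrays A and D below it. The mix 1 mean of 5.74 lay only a little above that value, so both sizes are uncertain too. Its partner RMI1 differed by -1.54 and -1.30 and RMI2 by -0.69 and -1.27. BRIP1, a helicase that binds BRCA1 and is also the Fanconi protein FANCJ, went from 9.73 ± 0.06 to 7.6 ± 0.23 and 6.95 ± 0.16 (SD, n = 4), leaving 22.9% and 14.6%. EME1, a subunit of the MUS81 nuclease, differed by -0.88 and -1.02.

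The 2 members of the break-sensing MRE11 complex were not lower with mix 2. RAD50, its ATPase, read 8.45, 8.41, 8.56 and 8.59 log2 in control, 8.16, 8.02, 8.10 and 8.12 with mix 1, and 9.37, 9.22, 9.32 and 9.16 with mix 2. The groups did not overlap: mix 1 lay below control and mix 2 above it. The differences were -0.40 ± 0.06 with mix 1 and 0.76 ± 0.06 with mix 2 (SE, adjusted p = 5.44e-05 and 5.79e-08). RAD50 was the only member called in opposite directions by the mixes, and its fall with mix 1 was not seen on every probe set, as given further on. NBN, the subunit that recruits ATM, differed with mix 1 by -0.31 (adjusted p = 0.000139) and read 0.00 with mix 2 (adjusted p = 0.946). MRE11 itself, a gene outside the members and the naming rule, differed by -1.12 and -0.89.

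In the Fanconi core complex with its conjugating enzyme, 6 of 7 measured genes were lower with mix 1 and 5 with mix 2 (medians -1.30 and -1.09). UBE2T, which carries the ubiquitin to FANCD2 and FANCI, read 11.25, 11.34, 11.32 and 11.29 log2 in control. It read 9.49, 9.29, 9.58 and 9.47 with mix 1 and 9.22, 9.24, 9.30 and 8.84 with mix 2. Control stood clear of both mixes, while mix 2 array C read just above mix 1 array B. UBE2T was left at 27.9% and 22.5% (-1.84 and -2.15, adjusted p = 2.18e-10 and 3.43e-11).

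Of the core subunits, FANCG differed by -2.03 and -1.63, FANCB by -1.88 and -1.97, FANCE by -1.30 and -1.09 and FANCC by -0.60 and -0.89. The knockdown means of FANCB, 5.10 and 5.01 log2, lay below the filter value, so the size of its fall is uncertain. FANCL, the ligase subunit of the core complex, read 10.51, 10.42, 10.36 and 10.47 in control and 10.01, 9.97, 9.72 and 9.90 with mix 1, with no overlap (-0.54, adjusted p = 6.09e-06). With mix 2 it read 10.42, 10.31, 10.47 and 10.46 (-0.02, adjusted p = 0.772). Mix 2 array B lay just below the control range and the other arrays inside it. FANCF, the adaptor that holds the core complex together, read 7.21 ± 0.02, 7.22 ± 0.09 and 7.32 ± 0.09 (SD, n = 4), and its groups overlapped (0.00 and 0.11, adjusted p = 0.951 and 0.127). With mix 1 the core subunits thus ran from 0.00 to -2.03.

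Of the substrate pair, FANCI was measured: its level went from 10.44 ± 0.02 to 8.0 ± 0.15 and 7.65 ± 0.13 (SD, n = 4), leaving 18.5% and 14.4% (-2.44 and -2.79, adjusted p = 3.47e-12 and 6.1e-13). USP1, which removes the ubiquitin again, differed by -1.0 and -0.95. WDR48, the cofactor of USP1 and a gene of the list of other Fanconi genes, was higher by 0.45 and 0.24 (adjusted p = 8.75e-06 and 0.00261).

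The checkpoint and damage tolerance genes were all lower with both mixes. CHEK1, the kinase that halts the cycle below ATR, read 9.66, 9.42, 9.45 and 9.55 log2 in control, 8.99, 8.88, 8.58 and 8.81 with mix 1 and 7.74, 7.63, 7.82 and 7.87 with mix 2. The 3 groups formed separate steps. The differences were -0.70 and -1.76 (SE 0.09, adjusted p = 4.54e-06 and 1.79e-10), leaving 61.3% and 29.6% on this probe set. ATR, the upstream kinase, differed by -0.51 and -0.42, RAD1, a subunit of the 9-1-1 clamp, by -0.84 and -0.61, and RAD18, the ligase that modifies PCNA at stalled forks, by -1.90 and -1.69.

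The 2 mismatch repair members were lower as well. MSH6, a subunit of the complex that recognises mismatches, read 11.29 in all 4 control arrays and differed by -1.15 and -0.96. PMS1, a MutL homologue, read 9.86, 9.89, 9.96 and 10.03 in control, 8.85, 8.71, 8.79 and 8.76 with mix 1 and 9.30, 9.25, 9.32 and 9.06 with mix 2, without overlap (-1.16 and -0.70). On probe sets not shared between transcripts, PMS1 differed by -0.24 with mix 1 and did not pass (adjusted p = 0.0833, with 2.11e-12 as the smallest over all alternatives).

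The mixes were compared with each other over the same 34 members. Mix 2 was lower than mix 1 in 12 (35.3%) and higher in 11 (32.4%), where 25.0% and 28.7% of all genes were lower and higher, and the median difference was -0.06 beside 0.02 for all genes. The 4 largest falls from mix 1 to mix 2 were in RAD51AP1 (-1.74 ± 0.12, SE, adjusted p = 2.51e-08), CHEK1 (-1.05 ± 0.09, adjusted p = 1.5e-07), EXO1 (-0.85 ± 0.14, adjusted p = 9.12e-05) and BRIP1 (-0.65 ± 0.10, adjusted p = 9.82e-05). Among members whose arrays did not overlap between the mixes, the 4 largest rises were in RAD50 (1.17 ± 0.06, adjusted p = 1.93e-09), FANCL (0.52 ± 0.07, adjusted p = 1.83e-05), PMS1 (0.46 ± 0.07, adjusted p = 4.42e-05) and PALB2 (0.39 ± 0.08, adjusted p = 0.000732). FANCG rose by 0.40 (adjusted p = 0.00848) with overlapping arrays. In the 8 genes named before it no array of one mix reached the range of the other. YAP1 and WWTR1 differed between the mixes by -0.06 and -0.12 (adjusted p = 0.73 and 0.344).

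BRCA1 (-0.52) and UBE2T (-0.31) were lower with mix 2 than with mix 1 (adjusted p = 0.00108 and 0.0113), as were FANCI (-0.36), RMI2 (-0.58), FANCC (-0.28) and RAD54L (-0.32). FANCC did not pass with its probe sets averaged (-0.13, adjusted p = 0.0826), and of the other 2 probe sets of FANCI 1 gave -0.30 (adjusted p = 0.0377) and 1 gave 0.06 (adjusted p = 0.686). The calls of RAD54B (-0.32), MND1 (-0.37) and FANCE (0.22) depended on single arrays. RAD54B lost its call without mix 1 replicate A or D or mix 2 replicate A or D (adjusted p = 0.104, 0.0625, 0.0839 and 0.103, with 0.0036 as the smallest over all alternatives). MND1 lost it without mix 1 replicate A or mix 2 replicate B or D (adjusted p = 0.097, 0.0974 and 0.059, smallest 0.0103). FANCE lost it without mix 1 replicate A or B or mix 2 replicate A, B or C (adjusted p = 0.0612, 0.0557, 0.0736, 0.0546 and 0.0685, smallest 0.00105). PMS1 changed sign with the probe set: mix 2 minus mix 1 was -0.70 (adjusted p = 9.88e-05) on probe sets not shared between transcripts, with adjusted p from 6.71e-06 to 0.256 over all alternatives.

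**Figure D3:**
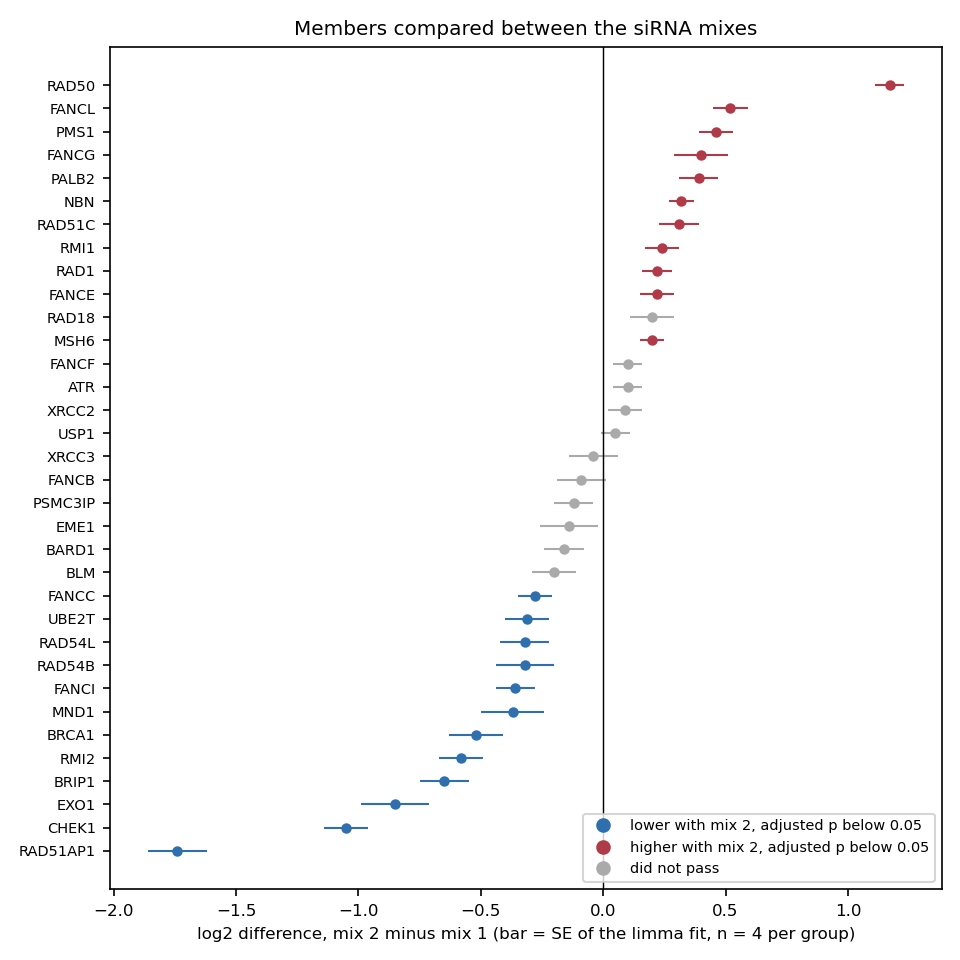
Log2 difference, mix 2 minus mix 1, for the 34 members in order of size; points are limma estimates, bars their SE (n = 4 arrays per group), and colours the call at an adjusted p below 0.05. The members spread to both sides of 0, from RAD51AP1 (-1.74) to RAD50 (1.17), with 12 lower, 11 higher and 11 that did not pass.

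Probe sets of 1 gene can read different transcripts, and 19 members had more than one. Of the 28 other probe sets that passed the filter, 26 differed in the same direction as the brightest one with mix 1, 23 with mix 2 and 20 between the mixes. With mix 1 the exceptions were in FANCF and RAD50, and with mix 2 in CHEK1, FANCF and NBN. Directions were read from rounded differences, and a value of 0.00 counted as an exception. This was so for FANCF with mix 1 and NBN with mix 2, whose brightest probe sets read 0.00. The other NBN probe sets past the filter read -0.15, -0.26 and 0.07 with mix 2. Between the mixes it was so for a CHEK1 probe set. The dimmest of the 3 probe sets of RAD50 was higher with both mixes, by 0.97 and 1.32 (adjusted p over all probe sets 7.77e-07 and 2.12e-08), while its middle one followed the brightest (-0.24 and 0.74). All 3 were higher than control with mix 2, whereas the direction with mix 1 depended on the probe set.

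For CHEK1 the gap between the mixes depended on the probe set. The middle 2 of its 4 probe sets by brightness differed by -1.45 and -1.55 with mix 1 and by -1.45 and -1.58 with mix 2. The mixes differed there by 0.00 and -0.02 (adjusted p = 0.988 and 0.885), where the brightest probe set gave -1.05, and the dimmest gave 0.37 (adjusted p = 0.0317) and did not pass against control with either mix. A fall of CHEK1 with both mixes was read by 3 of its 4 probe sets, and a larger fall with mix 2 by 1. All 4 probe sets of NBN past the filter were lower with mix 1, from -0.31 to -0.61, and 1 of them was lower with mix 2 (-0.26, adjusted p = 0.00848). The other probe set of FANCF was higher with mix 1 (0.37, adjusted p = 0.00267) and did not pass with mix 2 (-0.10). The dimmer probe set of BRCA1 differed by -0.65 and -0.60, in the same direction as the brightest one, and gave 0.05 between the mixes (adjusted p = 0.741), where the brightest gave -0.52.

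**Figure D4:**
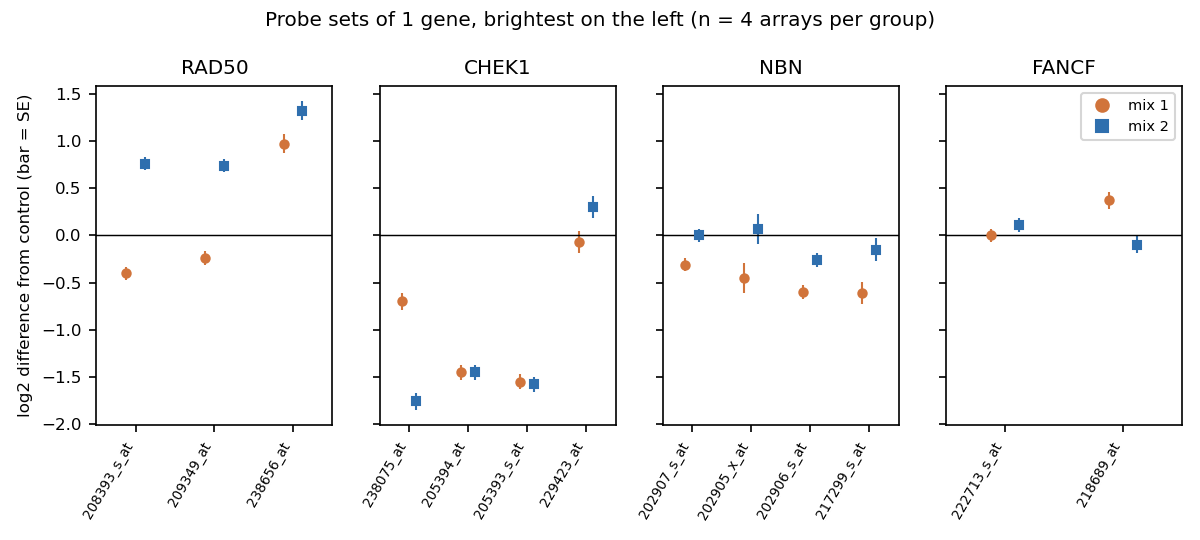
Log2 difference from control for each probe set past the filter of RAD50, CHEK1, NBN and FANCF, brightest on the left in each panel, with mix 1 as circles and mix 2 as squares and SE bars (n = 4 arrays per group). RAD50 mix 1 values run from -0.40 to 0.97 across probe sets, and CHEK1 shows a gap between the mixes on its brightest probe set.

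Other genes of the same pathways moved in both directions. For all lists below, the shares of all genes were 32.3% lower and 34.8% higher with mix 1. With mix 2 they were 31.9% and 36.7%. Of 35 other homologous recombination genes tested, 22 were lower and 6 higher with mix 1 and 21 and 8 with mix 2 (medians -0.46 and -0.28). MCM8, a helicase of recombination, differed by -2.28 and -2.49, FIRRM, a partner of the anti-recombinase FIGNL1, by -2.24 with mix 1, and DNA2, a resection nuclease, by -2.66 with mix 2. Genes that rose were SFR1, a recombination cofactor, by 1.14 with mix 1, BABAM2, of the BRCA1-A complex, by 1.34 with mix 2, and SWSAP1, a recombination factor, by 0.58 and 1.22. TOP3A and MUS81, named after their values were seen because they bind members, differed by -0.91 and -1.26 and by -0.46 with each mix.

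Of 15 other Fanconi genes, 10 were lower with each mix, and 1 and 2 were higher (medians -0.56 and -0.27). UHRF1, a sensor of crosslinks and of hemimethylated DNA, differed by -3.10 and -3.71, RFWD3, a ligase acting on RPA, by -2.01 with mix 1, and the nuclease DCLRE1B by -2.19 with mix 2. Of 18 other checkpoint genes, 12 and 13 were lower and 5 and 4 higher (medians -0.72 and -0.83). CLSPN, the adaptor between ATR and CHEK1, differed by -2.69 and -3.03, and TIPIN, of the fork protection complex, by -2.42 and -2.03. TP53BP1, which limits resection, was higher by 0.47 and 1.06 and ETAA1, an activator of ATR, by 0.61 and 1.01.

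The other repair pathways were mixed. Of 13 end joining genes, 8 were lower with each mix and 2 and 4 were higher (medians -0.31 and -0.34), with POLQ at -1.74 and -2.15, PRKDC at -2.10 with mix 1, and XRCC4 at 1.02 with mix 2. In base excision repair, 12 and 11 of 17 were lower and 4 and 5 higher (medians -0.51 and -0.70), with NEIL3 at -2.32 and -3.00 and MPG at 0.76 and 0.91. Of 5 other mismatch repair genes, 4 and 3 were lower and 0 and 1 higher (medians -0.38 and -0.51), led by PCNA (-1.56 and -1.37) and LIG1 (-1.49 and -1.44).

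Nucleotide excision repair was split, with 8 lower and 5 higher of 16 with mix 1 and 6 and 6 with mix 2, none at least 2-fold lower (medians -0.13 and -0.04). ERCC2, its helicase, differed by -0.95 and -0.82, and XPC, its damage sensor, was higher by 0.44 and 0.88. Translesion synthesis had 7 lower and 5 higher of 13 with mix 1 and 5 and 4 with mix 2 (medians -0.29 and -0.03), with POLH at -1.21 and -1.06. Its shares were 53.8% lower and 38.5% higher with mix 1, against 32.3% and 34.8% of all genes. With mix 2 they were 38.5% and 30.8%, near the 31.9% and 36.7% of all genes. Of 11 reference genes, 3 were lower and 3 higher with each mix (medians 0.02 and 0.03).

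**Figure D5:**
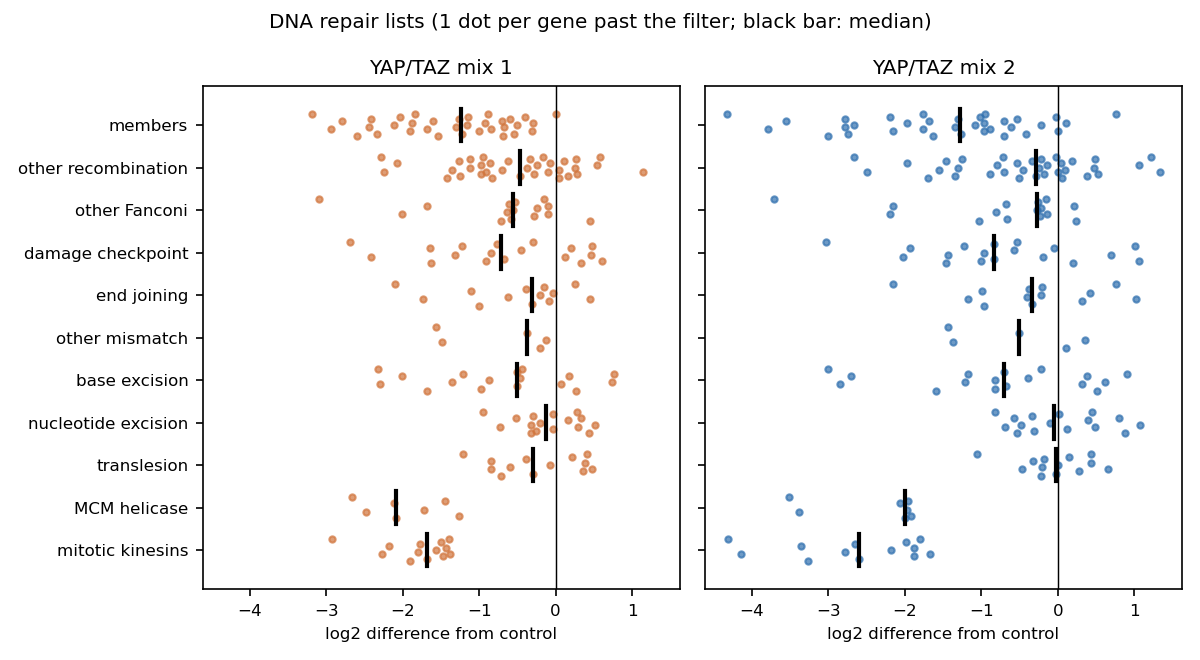
Log2 difference from control for each gene past the filter in the members and 10 other gene lists, left with mix 1 and right with mix 2; each dot is 1 gene and the black bar the list's median. The members' medians (-1.24 and -1.28) lie lower than those of the other repair lists. The medians of the MCM helicase list (-2.09 and -2.0) and the mitotic kinesins (-1.68 and -2.60) lie lower still. Members and lists were chosen with earlier results of these data known, and the part of that choice in these medians was not tested.

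Cell-cycle genes moved with the members. The MCM list held the helicase subunits MCM2 to MCM7 and the replication factor MCM10. All 7 of its genes and all 13 mitotic kinesins were at least 2-fold lower with each mix. All 9 proliferation markers were lower too (medians -1.72 and -2.34), and MKI67 went from 10.98 ± 0.07 to 8.32 ± 0.10 and 8.04 ± 0.26 (SD, n = 4). The RNA came from whole cultures, so fewer cells in S and G2 phase and less RNA of a gene per cell cannot be told apart, and the part of these changes in the members' fall was not tested. Between the mixes, all 13 kinesins (median -0.82) and 5 of the 7 MCM genes (median -0.50) were lower with mix 2, and MKI67 differed by -0.28 (adjusted p = 0.0329). The members' median between the mixes was -0.06, with 12 lower and 11 higher.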

How the data were processed

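Total RNA was read on Affymetrix U133 Plus 2.0 arrays, 4 for each of 3 groups. The deposited table gives log2 values of 54675 probe sets; per the submitters' processing notes the authors used RMA, and neither version nor options are given in the sources used here. RMA gives all arrays 1 distribution, so a shift of all genes one way would not be visible, and the number of arrays limits the precision. Members and gene lists were chosen with earlier results of these data known. GEO's platform annotation, with symbols updated through RefSeq, gave 41097 probe sets 1 gene; those with several (1801) or none were left out. Probe sets with a mean above the 40th percentile (5.46 log2) were kept, and the brightest stood for each gene, giving 13225 genes.

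Differences were tested with limma 3.58.1 (R 4.3.3), in 1 linear model of the 3 groups over the 12 arrays with 9 residual degrees of freedom and the default eBayes step, two-sided, with Benjamini-Hochberg adjustment over all genes and a threshold of 0.05. Probe sets whose names end in _s_at or _x_at were treated as shared between transcripts or genes. The brightest probe set was of that kind for 15 of the 34 members, BRCA1, RAD50, PMS1 and FANCF among them. For XRCC2 the only probe set ended in _x_at. The script was tested on simulated data. Array-by-array values are given for BRCA1, BRCA2, FANCD2, CHEK1 and UBE2T where measured, for the 4 largest falls and rises in each comparison among called members whose groups did not overlap, and for members called in opposite directions, with FANCF added after its values were seen; of each list, up to 2 genes per direction and mix. Same-letter arrays of control and mix 1 deviated together over all genes (r = 0.37, 0.251, 0.409 and 0.34 for A to D). Mix 1 array B, however, correlated best with control array A. The letters may thus pair these groups, judged from r above 0.1 in every pair and not from the labels. Control with mix 2 (r from 0.034 to 0.212) and the mixes with each other (r from -0.085 to 0.273) did not meet that mark in every pair. All printed tests leave the letters out unless a replicate block is named. Alternatives were other filters, array centring, other probe set choices, only the groups compared, a trended robust prior, a replicate block and leaving out each array.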

Additional observations from a re-analysis of the deposited data

Results flagged for a closer look

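In 4 of the 102 groups of 4 arrays, 1 array stood apart from the other 3 by Dixon's test, where chance gives about 1 in 20, or 5.1 groups. XRCC3 read 5.70 log2 in mix 2 replicate C and 5.34 to 5.37 in the others. MND1 read 7.19 in mix 1 replicate A and 6.66 to 6.73 in the others. PSMC3IP read 9.09 in control replicate D and 9.02 to 9.03 in the others. FANCB read 6.73 in control replicate B and 7.04 to 7.09 in the others.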

How the results depend on the processing

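Across the alternatives, no count of members called lower moved by over 1.5 times. It ran from 24 of 26 measured members (no shared probe sets) to 33 with mix 1, and from 23 of 26 to 30 with mix 2; leaving out single arrays gave 33 with mix 1, 29 to 30 with mix 2 and 10 to 13 between the mixes. Without probe sets shared between transcripts, or with each gene's probe sets averaged, 1 member was higher with mix 1: FANCF, at 0.37 and 0.19 (adjusted p = 0.00113 and 0.0168, up to 0.993 elsewhere). Those settings moved the members' median to -1.58 and -1.10 with mix 1 and to -1.62 and -1.12 with mix 2, and the first gave -0.19 between the mixes; they test fewer members (26 and 33). Signs turned for RAD50 with mix 1 (0.11, probe sets averaged, adjusted p = 0.118, from 2.45e-05 over all alternatives) and, between the mixes, for FANCF (-0.47 and -0.18) and PMS1 (-0.70 and -0.09), as their probe sets differ. With a replicate block, 33 members were lower with mix 1, 30 with mix 2 and 13 between the mixes; BARD1 then passed (-0.16, adjusted p = 0.0277, from 0.00746 to 0.306 over all alternatives), and no other member's call changed. Apart from the turned signs, 1 single value lost its call with mix 1, 3 with mix 2 and 17 between the mixes, where 7 gained one. Values near the filter (FANCB, XRCC3, BLM, and EXO1 with mix 2) are limited by signal over background.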
